A study of Mus musculus with 5 samples.

Results

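Genes of the Slit and Robo, Eph and ephrin, semaphorin, plexin, neuropilin and netrin families were followed in mouse forelimb buds collected at E11.5. A list of 45 family genes was matched by gene symbol to the array's probe sets. Of these, 44 genes were measured on 110 probe sets, out of 18193 genes on 34945 probe sets that carry a single gene symbol, and Ephb2 was not analysed here. Each gene was represented by its brightest probe set, meaning the one with the highest mean over the 5 arrays, and 34 of the 44 genes had further probe sets that served as a check. The list was chosen by family membership with the log2 differences between double mutant and wild type on these arrays in view, so the differences of its genes are given as a description and support nothing by themselves.

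The study compared 2 arrays from embryos that were Sost-/-; Sostdc1-/- with 3 arrays from wild type embryos, all on a C57Bl/6 background. Sost and Sostdc1 encode related secreted antagonists that bind Wnt co-receptors, and Sostdc1 also restrains BMP signals. Per the labels, embryos were not pooled, and the genotype names no Cre driver or limb-specific allele. The study's title links the pair of genes to digit number through Gli3, the main Hedgehog repressor of the limb.

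These families were named for steering growing axons, and most of them also act in limb buds outside nerves. Slits are secreted ligands of Robo receptors. Ephrins are tethered to the cell surface and signal through Eph receptor kinases on the neighbouring cell, with ephrin-A proteins held by a lipid anchor and ephrin-B proteins spanning the membrane. Secreted class 3 semaphorins act through neuropilins paired with plexins, while transmembrane semaphorins bind plexins directly. Netrin binds Dcc and Unc5 receptors. In limb buds Eph and ephrin signals help to set boundaries and cell affinity in the mesenchyme, Epha4 and ephrin-A proteins guide motor axons into dorsal or ventral muscle, and ephrin-B2 with Ephb4 marks arterial and venous endothelium.

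Promoter sequences are shown for the 4 genes whose brightest probe set differed by at least 1.5-fold with no overlap between groups (Robo2, Ephb1, Ephb4 and Sema3e) and for Nrp2, whose dimmest probe set was called higher while its brightest differed by 0.00. Nrp1, whose probe sets showed the same arrangement, is not shown. Each stretch is read 5′ to 3′ on the gene's strand from the RefSeq table of build GRCm38.p6, up to 250 bases before the start and ending where the annotated gene begins. Capitals mark a TCF/LEF word, the site type bound by the nuclear effectors of canonical Wnt signalling, searched on both strands as CTTTGAT and its variants ending in AA (CTTTGAA), in TT (the word CTTTGTT) and in TA (the word CTTTGTA).
Robo2 (chr16:75447444-75447543, minus strand): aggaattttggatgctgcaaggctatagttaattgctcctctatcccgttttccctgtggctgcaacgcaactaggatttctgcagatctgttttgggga
Ephb1 (chr9:102354694-102354943, minus strand): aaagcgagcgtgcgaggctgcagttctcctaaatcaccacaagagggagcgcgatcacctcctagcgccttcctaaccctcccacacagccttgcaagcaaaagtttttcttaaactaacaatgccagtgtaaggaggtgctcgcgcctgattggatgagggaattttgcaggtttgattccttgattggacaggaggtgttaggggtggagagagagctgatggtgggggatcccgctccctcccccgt
Ephb4 (chr5:137349859-137350108, plus strand): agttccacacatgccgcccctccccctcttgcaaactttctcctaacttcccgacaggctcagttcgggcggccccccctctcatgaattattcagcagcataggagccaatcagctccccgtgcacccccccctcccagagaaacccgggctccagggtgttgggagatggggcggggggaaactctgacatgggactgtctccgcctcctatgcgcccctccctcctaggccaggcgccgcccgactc
Sema3e (chr5:14025026-14025275, plus strand): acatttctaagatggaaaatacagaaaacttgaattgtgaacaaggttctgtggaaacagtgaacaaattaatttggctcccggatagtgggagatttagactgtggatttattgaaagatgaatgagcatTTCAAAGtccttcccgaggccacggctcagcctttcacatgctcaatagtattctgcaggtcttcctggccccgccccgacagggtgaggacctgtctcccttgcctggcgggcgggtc
Nrp2 (chr1:62703067-62703316, plus strand): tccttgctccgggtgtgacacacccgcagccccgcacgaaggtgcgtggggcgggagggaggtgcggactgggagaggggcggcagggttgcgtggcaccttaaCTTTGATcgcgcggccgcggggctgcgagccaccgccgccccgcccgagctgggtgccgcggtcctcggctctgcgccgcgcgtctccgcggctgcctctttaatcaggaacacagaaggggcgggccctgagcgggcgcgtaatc

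The table held 49 promoter windows of 300 bases for 37 of the 45 genes. A TCF/LEF word occurred in 8 of the 49 windows, those of Efna4, Epha2, Nrp2, Plxnb1, Sema3c, Sema3d, Sema3e and Sema6d, and in 16.9% of all 32851 windows. The GLI core GACCACCC, on either strand and overlapping no TCF/LEF word, occurred in 0 of the 49 windows and in 0.807% of all windows. These counts describe letters in a short window, and no binding was measured. Entries for Slit1, Efnb3, Sema3f, Sema6a, Plxna1, Plxna4, Ntn1 and Dcc were not in the table.

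The arrays as a whole bear on every value below. Median linear intensities lay between 39.4 and 44.4, and log2 of the deposited intensity is the scale of all levels given here. Sost on 1450179_at stood at 4.16 and 4.43 in double mutants and between 6.19 and 6.75 in wild type. Its dimmer probe set, 1421245_at, differed by −0.73 (limma adjusted p = 0.237). Sostdc1 on 1460250_at stood at 6.28 and 7.35 against 8.94 to 9.42. Its other probe set, 1449340_at, overlapped between genotypes (difference 0.05) and was the brighter one over the 5 arrays. Read by its brightest probe set, as the guidance genes are below, Sostdc1 would therefore show no fall. Dap, a spiked bacterial control transcript, stood at 6.90 and 7.28 in double mutants and between 3.23 and 3.36 in wild type, so preparation and genotype cannot be told apart. Both double mutant arrays carried Xist (12.37 and 11.75) together with the Y-linked Eif2s3y (8.36 in each), which goes against a single embryo per array. In wild type, replicate 1 carried Xist alone (12.28) and replicates 2 and 3 carried Eif2s3y alone (8.49 and 8.42). With limma, 18.2% of all 45037 probe sets were called, that is, had a Benjamini-Hochberg adjusted p under 0.05, with 8.70% higher and 9.52% lower in double mutants. Without double mutant replicate 1 or without wild type replicate 2, limma called 0 probe sets (14059 and 11115 at an unadjusted p under 0.05), so every call below is lost in those fits. Markers of limb mesenchyme, the labelled tissue, were bright in all arrays, with 10 of 10 brighter than the array median, 0 of 10 called by limma (1 at an unadjusted p under 0.05) and a log2 summed level from 14.52 to 14.57 in double mutants and 14.52 to 14.54 in wild type.

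Most guidance genes differed little between genotypes on the brightest probe set. Of 44 genes, 1 was called higher (Robo2) and 3 were called lower (Ephb1, Ephb4 and Sema4a), and the other 40 were not called. Over all genes, 14.7% of brightest probe sets were called, with 6.56% higher and 8.14% lower. Since the genes were listed with this contrast in view, nothing is read from their share. The difference was smaller than 0.25 on the log2 scale, in either direction, for 27 of the 44 genes. The median difference over the 44 genes was −0.13, beside −0.02 over all 18193 genes. The groups did not overlap for 17 genes, beside 43.2% of all genes, and did so with a difference of at least 1.5-fold for 4, beside 9.41% of all genes. Because the limb bud is a mixed tissue, fewer cells of a type and less RNA per cell cannot be told apart. The median of all probe sets was 5.41, and 41 of the 44 brightest ones exceeded it. The exceptions were Robo2, Sema3e and Epha5.

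**Figure D1:**
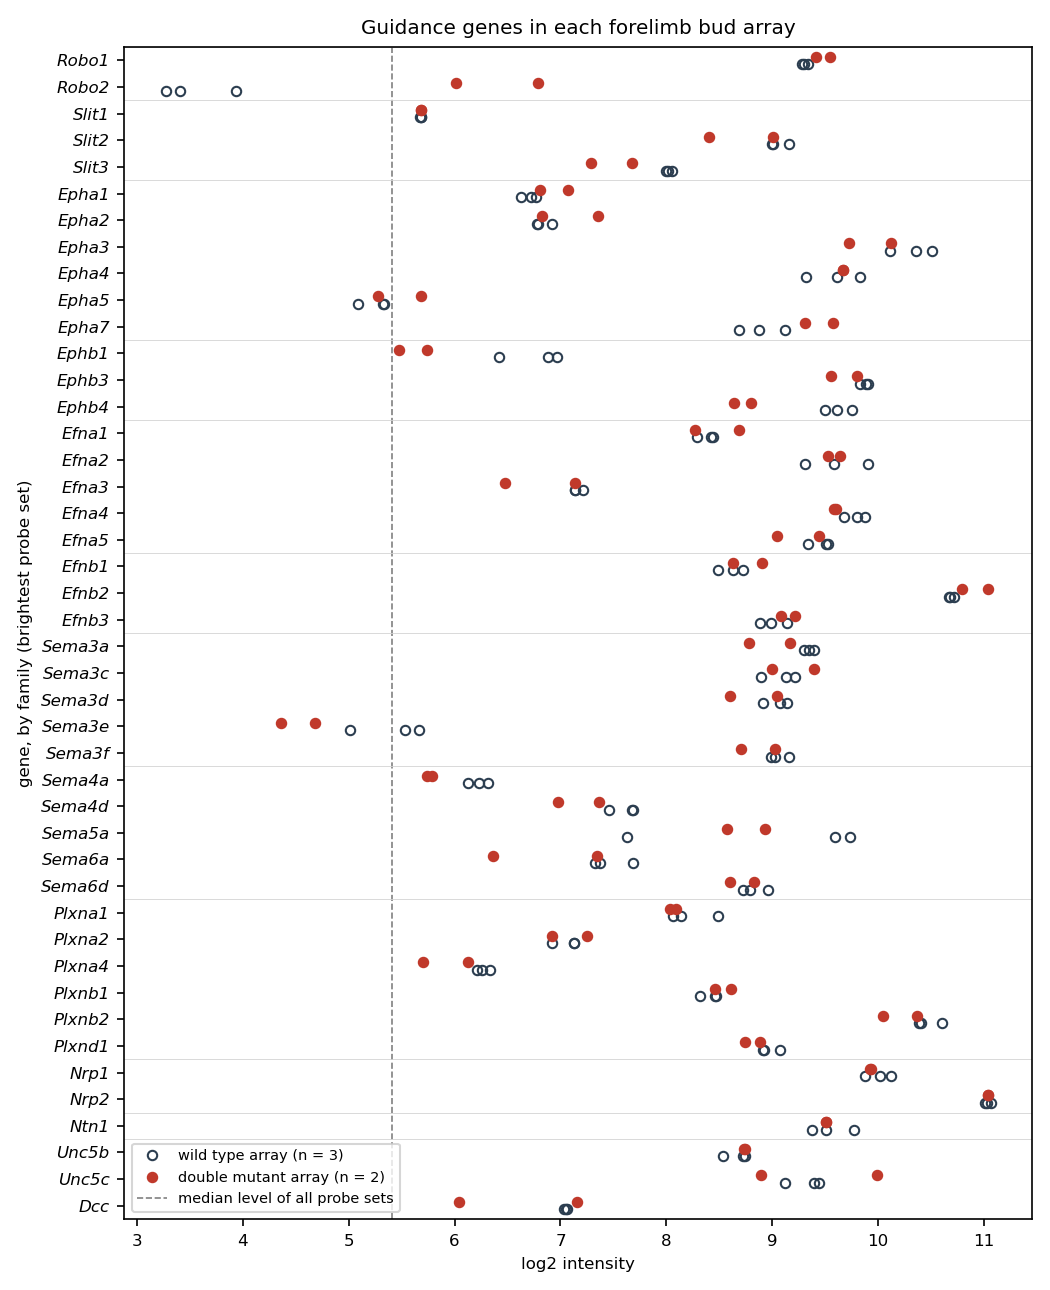
Log2 intensity on the brightest probe set of each of the 44 measured genes, in 3 wild type arrays (open circles) and 2 double mutant arrays (filled circles), with a dashed line at the median of all probe sets (5.41). Robo2 is the row with the widest gap between the groups, and the height of a row is specific to its probe set and is not comparable with another row.

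Robo2 encodes a receptor for Slit ligands, and its single probe set, 1458229_at, stood at 6.78 and 6.01 in the mutant arrays against 3.93, 3.41 and 3.27 in wild type. Both double mutant arrays lay above the 3 wild type arrays, and the lowest double mutant value was 6.01 against a highest wild type value of 3.93. The difference was 2.86 ± 0.33 (SE). Trpn, a control for an absent transcript, stood between 3.05 and 3.14 in the 5 arrays, so Robo2 signal in wild type was near the floor of the array and the size of the difference is uncertain. The difference was 2.48 without double mutant replicate 1 and 2.80 without wild type replicate 2, the fits in which nothing was called, and 2.73 to 3.25 in the other leave-out fits, where the call held.

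Robo1, the related receptor, stood at 9.42 and 9.55 in the mutant arrays against 9.30, 9.28 and 9.34 in wild type on 1427231_at. Its groups did not overlap, yet the difference was 0.17 ± 0.06 (SE) and was not called. Both other Robo1 probe sets differed by 0.01 and 0.02 and were dim. No Robo1 probe set was called.

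Markers of neurons, a cell type in which Robo2 is well known, are given beside it. Among 14 such markers, limma called 1 higher (Elavl2, 1.11 ± 0.16, SE, adjusted p = 0.0201) and 0 lower, beside 6.56% and 8.14% over all genes. With limma, 3 of 14 had an unadjusted p under 0.05, with Elavl2 and Elavl4 (0.55) higher and Nefl (−0.30) lower. Tubb3 lay higher (0.28) and Stmn2 lower (−0.41), also without overlap, and were not called. The median difference of the 14 markers was 0.00. Their log2 summed level was 10.59 and 10.70 in double mutants and 10.52 to 10.60 in wild type. Snap25, a synaptic protein gene, stood at 3.26 in every array, near the absent-transcript control. Their part in the Robo2 difference was not tested.

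The Slit ligands were not called on their brightest probe sets. Slit2, the best studied ligand of Robo1 and Robo2, stood at 9.01 and 8.40 in the mutant arrays against 9.01, 9.0 and 9.16 in wild type on 1424659_at. Double mutant replicate 1 lay within the wild type values and replicate 2 below them. A dimmer Slit2 probe set, 1451430_at, was called lower at −1.20 ± 0.14 (SE), while 1458140_at differed by 1.05 ± 0.36 and was not called. Slit3 stood at 7.29 and 7.67 in the mutant arrays against 8.01, 8.0 and 8.05 in wild type, differing by −0.54 ± 0.13 that was not called although the groups did not overlap. Slit1 had one identical value, 5.68, in 4 arrays and 5.67 in wild type replicate 2. Of the 110 probe sets, 27 (24.5%) had the same value in at least 2 arrays, and such ties within a genotype add no spread to the SE. The source of these equal values was not tested.

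Among Eph receptors, the EphB group held both of the calls made on brightest probe sets. Ephb4, the ephrin-B2 receptor of venous endothelium, stood at 8.64 and 8.80 in the mutant arrays against 9.50, 9.62 and 9.75 in wild type. Every double mutant value lay below every wild type value, with a difference of −0.90 ± 0.10 (SE). Ephb1, a receptor expressed in neural and mesenchymal tissue, stood at 5.74 and 5.47 in the mutant arrays against 6.97, 6.42 and 6.88 in wild type, again without overlap, at −1.15 ± 0.21. Ephb3 stood at 9.80 and 9.56 against 9.82, 9.89 and 9.90, a difference of −0.19 ± 0.09 that was not called. Each of these 3 genes had a single probe set, so no second probe set could be compared. The Ephb4 call did not survive leaving out double mutant replicate 2 (difference −0.98), and the Ephb1 call was lost in each of the 5 leave-out fits (differences from −1.32 to −1.02).

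Endothelial markers are given beside Ephb4. Of 13 such markers, limma called 5 lower (Pecam1, Tie1, Emcn, Esam and Cldn5) and 0 higher, with 6 of 13 at an unadjusted p under 0.05 in either direction, beside 8.14% lower over all genes. All 13 were brighter than the array median, and their log2 summed level was 11.43 in both double mutant arrays and 11.80 to 11.88 in wild type. Pecam1, an adhesion molecule of endothelial cells, stood at 6.40 and 6.28 in the mutant arrays against 8.43, 8.43 and 8.11 in wild type. Cdh5, the endothelial cadherin, stood at 7.44 and 7.19 against 7.32 to 7.44, so its values overlapped. Kdr, Tek, Erg and Sox18 differed by −0.03, −0.06, −0.25 and −0.80, and Egfl7, Flt1 and Sox17 by 0.10, 0.23 and 0.24, and none of these 7 was called. The part of endothelial content in the Ephb4 difference was not tested.

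The EphA receptors were not called on any of their 6 brightest probe sets. Epha3, expressed in limb mesenchyme, stood at 10.12 and 9.72 in the mutant arrays against 10.11, 10.35 and 10.50 in wild type on 1455426_at, and the groups overlapped. Epha7, another receptor of limb mesenchyme, stood at 9.58 and 9.31 against 8.68, 8.87 and 9.12 on 1451991_at, a difference of 0.55 ± 0.16 (SE) without overlap. Epha4, the receptor of lateral motor axons and of limb mesenchyme, stood at 9.67 in both double mutant arrays and at 9.32, 9.61 and 9.83 in wild type on 1429021_at. Epha1, Epha2 and Epha5 differed by 0.23 to 0.26 and were not called.

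Ephrins, the membrane-bound ligands of these receptors, were likewise not called on any of 8 brightest probe sets. Efnb2, the ligand of Ephb4 and a marker of arterial endothelium, stood at 10.79 and 11.04 in the mutant arrays against 10.68, 10.67 and 10.72 in wild type on 1419639_at. The double mutant values lay above the wild type values by 0.23 ± 0.09 (SE) on average. Efnb1, mutated in a human craniofacial syndrome with skeletal defects, and Efnb3 differed by 0.15 each. Among ephrin-A genes, Efna3 differed by −0.35 ± 0.21, with double mutant replicate 1 alone apart, and Efna1, Efna2, Efna4 and Efna5 differed by 0.09, −0.02, −0.19 and −0.22.

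Secreted semaphorins repel growing axons and shape vessels. On the brightest probe sets 0 of 5 were called, with differences from −0.88 to 0.12. Sema3a, a repellent that acts through Nrp1, stood at 9.17 and 8.78 in the mutant arrays against 9.40, 9.35 and 9.29 in wild type on 1420416_at, a difference of −0.37 ± 0.13 (SE) without overlap. Sema3e, a ligand of Plxnd1 in vessel patterning, was dim, at 4.68 and 4.36 against 5.01, 5.53 and 5.66 on 1442226_at. Its groups did not overlap, the difference was −0.88 ± 0.24, and it was not called. Sema3c, Sema3d and Sema3f differed by 0.12, −0.22 and −0.19.

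Among 5 transmembrane semaphorins 1 was called lower, and all 5 differences were below 0, from −0.61 to −0.11. Sema4a stood at 5.79 and 5.74 in the mutant arrays against 6.13, 6.32 and 6.23 in wild type on 1448110_at, a difference of −0.46 ± 0.07 (SE). Its call did not survive leaving out double mutant replicate 2 (difference −0.44) or wild type replicate 3 (−0.46), and its dimmer probe set stood at 0.11. Sema5a showed a wide spread within wild type on its brightest probe set, at 9.59, 9.73 and 7.63, with double mutants between them at 8.93 and 8.57. Sema6a, Sema4d and Sema6d differed by −0.61, −0.44 and −0.11 and were not called.

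Plexins, the signalling receptors for semaphorins, were not called on any of 6 brightest probe sets. Plxnb2 stood at 10.37 and 10.05 in the mutant arrays against 10.38, 10.41 and 10.60 in wild type, differing by −0.26 ± 0.13 (SE). Plxna1, Plxna2, Plxna4 and Plxnb1 differed by −0.16, 0.03, −0.35 and 0.12. A second Plxnb1 probe set, 1435254_at, stood at 8.99 and 8.61 in the mutant arrays against 7.94, 8.02 and 8.19 in wild type and was called higher (0.75 ± 0.15), a call lost in each of the 5 leave-out fits (differences from 0.55 to 0.94). Plxnd1, the vascular receptor of Sema3e, differed by −0.16 ± 0.08 and was not called.

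Neuropilins, the co-receptors that bind class 3 semaphorins and VEGF, differed by −0.08 (Nrp1) and 0.00 (Nrp2) on their brightest probe sets and were called higher on their dimmest ones. Nrp2 stood at 11.04 and 11.03 in the mutant arrays against 11.01, 11.03 and 11.06 in wild type on 1435349_at. On 1447343_at it stood at 7.93 and 8.0 in the mutant arrays against 5.85, 5.43 and 5.29 in wild type, differing by 2.44 ± 0.19 (SE) that was called. Nrp1 showed the same arrangement, with 9.92 and 9.94 against 9.88, 10.12 and 10.02 on 1448943_at. On 1457198_at Nrp1 stood at 8.08 and 7.85 in the mutant arrays against 5.90, 4.93 and 5.11 in wild type, differing by 2.65 ± 0.33 that was called. Without double mutant replicate 2 neither was called (2.76 for Nrp1 and 2.40 for Nrp2), and without wild type replicate 3 Nrp1 was not called (2.55). For both genes the 2 probe sets of middle brightness differed by −0.02 to 0.63 and were not called. The double mutant arrays lay above every wild type array on 1418084_at of Nrp1 (0.63). They did so too on 1426528_at (0.56) and 1456778_at (0.15) of Nrp2, while the groups overlapped on 1448944_at of Nrp1. Which transcripts the dimmest probe sets report was not tested.

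Netrin and its receptors were not called on any probe set. Ntn1, a secreted ligand that attracts or repels axons, stood at 9.51 in both double mutant arrays and at 9.77, 9.38 and 9.51 in wild type on its brightest probe set, and a dim one stood at −1.19 ± 0.54 (SE). Unc5c, a receptor for repulsion by netrin, stood at 9.99 and 8.90 against 9.12, 9.40 and 9.44 on 1449522_at, so the double mutant arrays lay on both sides of the wild type ones. Dcc, the receptor for attraction, stood at 7.16 and 6.04 against 7.06, 7.03 and 7.05, with double mutant replicate 2 alone apart. Unc5b, also found on endothelium, differed by 0.07 ± 0.08 on its brightest probe set. On dimmer probe sets Unc5b differed by 0.96 ± 0.29 (1453269_at) and Unc5c by −1.19 ± 0.37 (1419592_at), both without overlap. The groups overlapped on the dimmer Dcc probe sets.

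Probe sets of the same gene often disagreed. Of the 66 probe sets that were not the brightest of their gene, 21 were called lower and 3 higher, beside 15.0% lower and 8.66% higher over the 16752 such probe sets of all genes. In 17 of the 34 genes with several probe sets the brightest was not called while another was called lower, beside 18.5% of 9010 such genes overall. A lower call on the brightest probe set itself was made in 9.03% of those 9010 genes. None of these 34 genes had probe sets called in opposite directions. The spread between the highest and the lowest difference of a gene exceeded 1 on the log2 scale in 16 of 34 genes, with a median of 0.93, beside 30.3% and a median of 0.50 over all genes with several probe sets. Ranking probe sets by wild type alone left 20 of 66 other probe sets called lower, beside 14.1% over all genes.

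**Figure D2:**
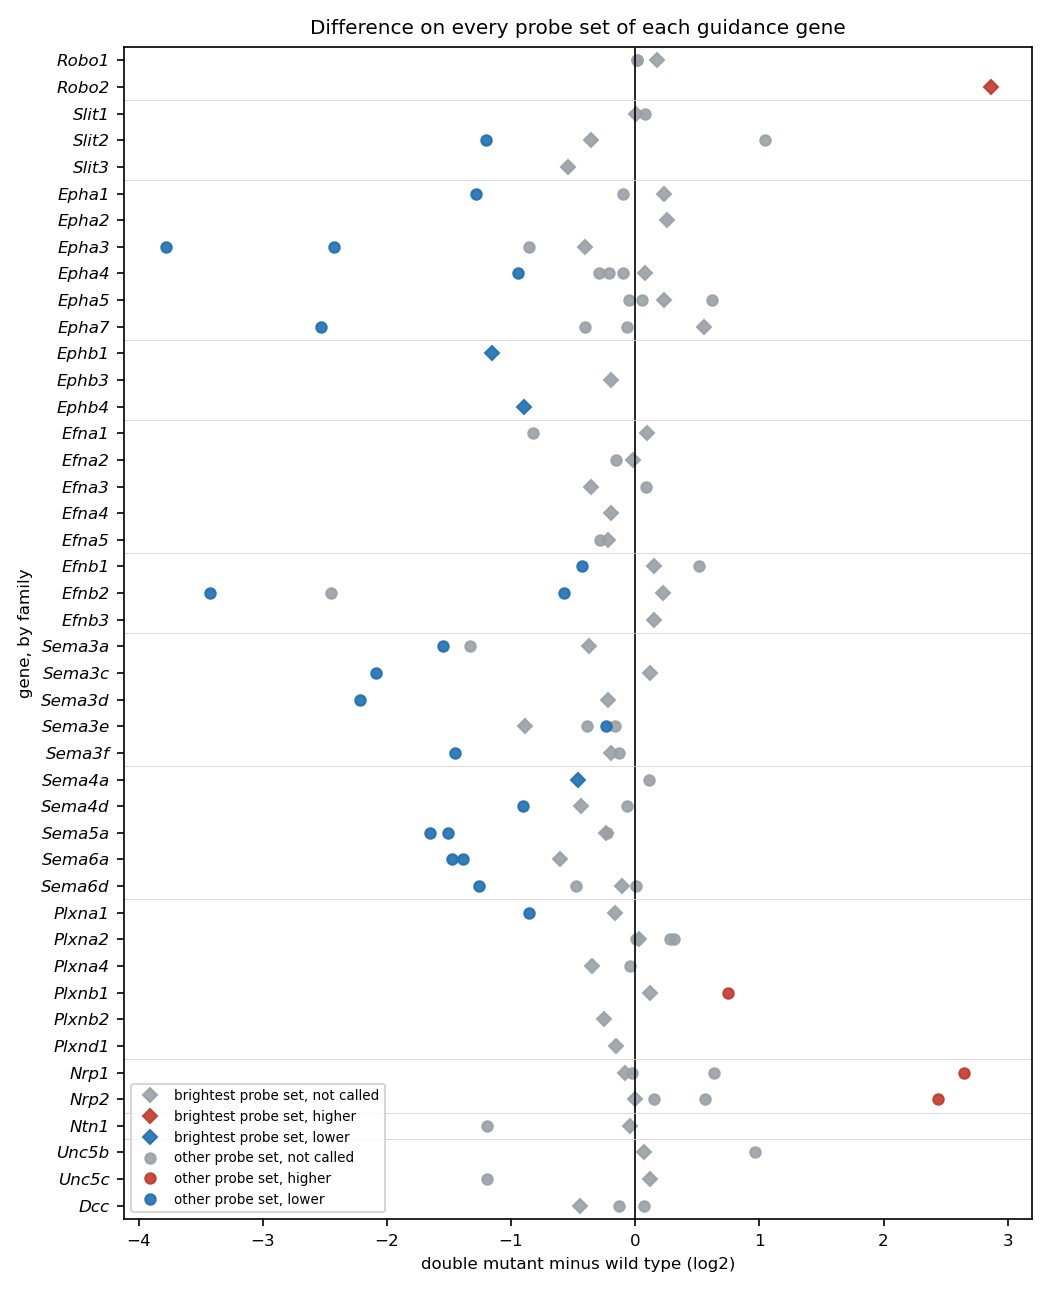
Double mutant minus wild type difference in log2 intensity for all 110 probe sets of the 44 genes, diamonds for the brightest of each gene and circles for the others, coloured where the adjusted p was under 0.05 (red higher, blue lower). The diamonds furthest from 0 are those of Robo2, Ephb1, Ephb4 and Sema3e, and most blue marks are circles.

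Efnb2 showed the widest spread, 3.65 between its extreme probe sets, although all 4 of its probe sets cite a single transcript record. Against the difference of 0.23 on 1419639_at, the next, 1419638_at, stood at −0.58 ± 0.08 (SE) and was called. On 1449548_at Efnb2 stood at 4.99 and 4.96 in the mutant arrays against 8.61, 8.62 and 7.97 in wild type, differing by −3.43 ± 0.24 that was called. The last, 1449549_at, stood at 4.56 and 5.11 against 8.04, 7.45 and 6.37 and was not called. In wild type, replicate 3 was the lowest array on each of the 3 dimmer probe sets.

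Epha3 came next, with a spread of 3.38. On 1426057_a_at it stood at 3.38 and 3.25 in double mutants, near the absent-transcript control, and at 7.71, 7.65 and 5.93 in wild type, differing by −3.78 ± 0.63 (SE), so the size of this difference is uncertain. On 1425574_at it stood at 6.31 and 5.71 against 8.75, 8.90 and 7.67, and both were called lower. The Epha7 probe set 1427528_a_at stood at 5.36 and 5.17 against 7.97, 8.02 and 7.41 (−2.53 ± 0.22), while the brightest Epha7 probe set lay above wild type. Secreted semaphorins were called lower on their second brightest probe sets, by −2.22 ± 0.27 for Sema3d, −2.08 ± 0.34 for Sema3c, −1.55 ± 0.18 for Sema3a and −1.46 ± 0.05 for Sema3f. Their brightest probe sets, none of them called, differed by −0.22, 0.12, −0.37 and −0.19 in the same order.

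Among the other genes, Sema5a was called lower on 2 probe sets (−1.65 and −1.51) and Sema6a on 2 (−1.39 and −1.48). Epha1, Slit2, Sema6d, Epha4, Sema4d, Plxna1, Efnb1 and Sema3e each had 1, from −1.28 for Epha1 to −0.24 for Sema3e. For Epha4 the 5 probe sets differed by −0.95 to 0.08, and on 1421929_at wild type itself ran from 9.72 through 8.81 to 7.88 with double mutants at 8.77 and 8.41. On that probe set the wild type arrays spanned more than the genotype means were apart. Of the 110 probe sets, 24 were called lower and 4 higher with all arrays, beside 9.52% and 8.70% of all probe sets. These counts were 19 and 2 without wild type replicate 3, 8 and 2 without double mutant replicate 2, and 7 and 3 without wild type replicate 1, fits in which 5108, 3826 and 2939 probe sets were called over the whole array, against 8206 with all arrays. The lower calls of Sema4d, Efnb1 and Sema3e were lost in each of the 5 leave-out fits. Those of Epha3 (both probe sets), Epha4, Sema3a, Sema3c, Sema3d, Sema6d and Plxna1, and 1 each of Sema5a and Sema6a, held only without wild type replicate 3, and that of Efnb2 on 1419638_at only without double mutant replicate 2.

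**Figure D3:**
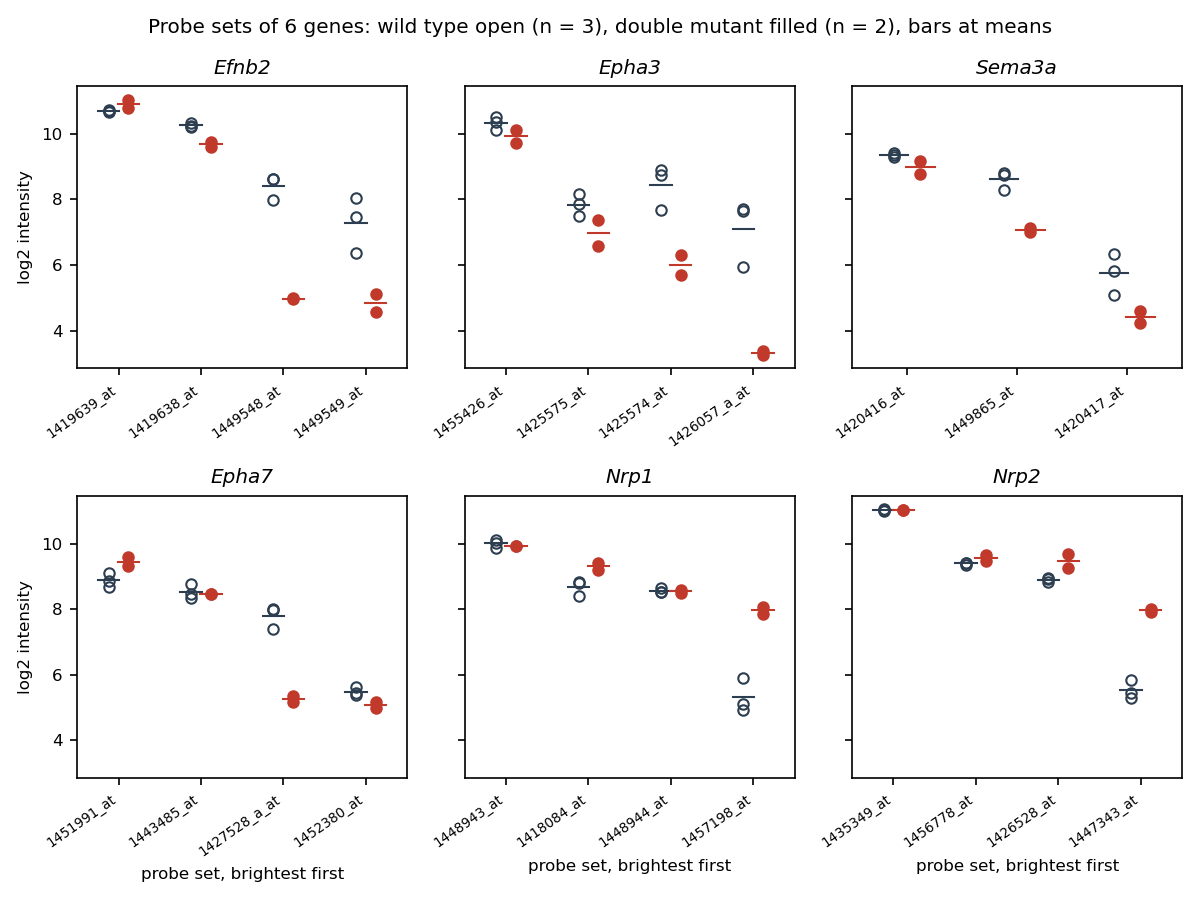
Log2 intensity on every probe set of 6 genes, ordered from brightest to dimmest, for 3 wild type arrays (open, with bar at the mean) and 2 double mutant arrays (filled, with bar at the mean). Efnb2, Epha3, Sema3a and Epha7 separate downward on dimmer probe sets. Nrp1 and Nrp2 separate upward most widely on the dimmest one, and by less on some probe sets of middle brightness.

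Wild type replicate 3 was the lowest wild type array on 17 of the 21 other probe sets called lower, and on 6 of the 44 brightest ones. Over all genes these shares were 71.8% of 2510 and 17.5% of 18193. Its distance from the mean of wild type replicates 1 and 2 varied on those 17, from −0.05 (Sema3f on 1425840_a_at) to −1.75 (Epha3 on 1426057_a_at). Control probe sets that read the 3′ and the 5′ end of a transcript also differed between arrays. For Gapdh, 3′ signal minus 5′ signal came to 0.27 and 0.16 in double mutants and −0.14, −0.10 and −0.06 in wild type. For Actb it was 0.65 and 0.56 in double mutants and 0.20, 0.24 and 0.68 in wild type, with wild type replicate 3 near the double mutants. For pyruvate carboxylase it was 2.31 and 1.77 in double mutants and 1.38, 1.42 and 1.84 in wild type. Gapdh alone had no overlap between the genotypes, since wild type replicate 3 overlapped the double mutants for Actb and pyruvate carboxylase. The 5′ probe set of the transferrin receptor stood at 3.33 and 3.41 in double mutants, near the absent-transcript control, so its 3′ minus 5′ value is bounded by the floor there and is not compared. The part of transcript end coverage in the differences between probe sets was not tested, and the positions of the probe sets were not used here.

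**Figure D4:**
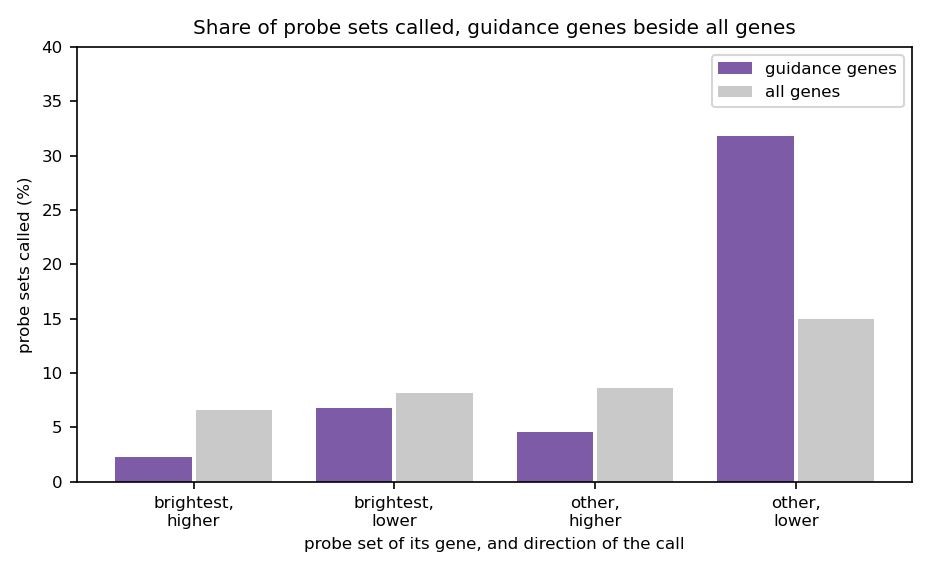
Percentage of probe sets called higher or lower with adjusted p under 0.05, for the brightest and for the other probe sets of a gene, in guidance genes (purple) and in all genes (grey). Among other probe sets, 31.8% of those of guidance genes and 15.0% of those of all genes were called lower, and no test of this difference was made because the guidance genes were chosen with the contrast in view.

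The remaining genes of the same families were examined in the same way. Of 32 such genes (further Robo, Eph, semaphorin, plexin, netrin, Unc5, repulsive guidance molecule and Flrt genes), limma called 0 higher and 2 lower on their brightest probe sets, with 2 higher and 6 lower at an unadjusted p under 0.05, and their median difference was −0.11. Over all genes 6.56% of brightest probe sets were called higher and 8.14% lower. Of their 35 other probe sets, 4 were called higher and 8 lower, beside 8.66% and 15.0% over all genes. Ntn3, a netrin ligand, fell by 1.59 ± 0.13 (SE, adjusted p = 0.00771), from 6.26, 6.49 and 6.12 in wild type to 4.67 and 4.73 in double mutants. Sema4f, a transmembrane semaphorin, fell by 0.28 ± 0.05 (adjusted p = 0.0356), from 6.81 to 6.91 in wild type to 6.58 and 6.60. On these probe sets the groups did not overlap for either gene. That of Sema4f, 1439768_x_at, carries a suffix that marks possible cross-hybridization. The second Sema4f probe set, 1419328_at, differed by −0.13 ± 0.11 and was not called. The Sema4f call was lost in each leave-out fit (differences from −0.31 to −0.26), and that of Ntn3 also without double mutant replicate 2 (−1.62). The count of higher calls on brightest probe sets was 1 when dim probe sets were left out, when a gene's probe sets were averaged, with equal array medians, with quantile normalization or with trend and robust moderation.

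Genes that carry guidance signals inside the cell, listed together with co-receptors and modifiers such as Gpc1 and Ext1, were called in both directions. Of 62 measured transducers, 7 fell and 4 rose on their brightest probe sets, and their median difference was −0.03. The shares that fell and rose, 11.3% and 6.45%, stand beside 8.14% and 6.56% over all genes. Of the 7 that fell, 2 had a further probe set called higher. Arhgef12, an exchange factor bound by plexin-B receptors, was higher on 1446965_at (0.69 ± 0.13, SE, adjusted p = 0.0348 with limma). Its brighter probe set 1451159_at was called lower (−1.04 ± 0.09), as was its brightest. Rhoa was higher on the dim 1443768_at (1.33 ± 0.19, mean level 3.69). Cap1, a regulator of actin turnover, fell by 1.01 ± 0.04 (SE, adjusted p = 0.00527), from 10.75, 10.78 and 10.73 in wild type to 9.73 and 9.75 in double mutants. Its second probe set fell by 2.78 ± 0.11 (adjusted p = 0.00527).

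Chn1 encodes a Rac-inactivating protein that acts downstream of Epha4 in axons. It fell by 1.03 ± 0.07 (SE, adjusted p = 0.00723), from 9.14, 9.10 and 8.98 to 8.09 and 7.99. Cdc42, a small GTPase of the actin cytoskeleton, fell by 1.62 ± 0.12 (adjusted p = 0.00750) on 1449574_a_at, from 12.48, 12.49 and 12.19 to 10.68 and 10.85. The 3 other Cdc42 probe sets differed by −0.32 to 0.31 and were not called, and neither was the dim second one of Chn1 (−0.62 ± 0.21).

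The genes that rose were Arhgap39, Gpc1, Usp33 and Grip1. Arhgap39, whose fly counterpart binds Robo receptors, rose by 0.63 ± 0.09 (SE, adjusted p = 0.0180), from 8.17, 8.13 and 8.34 to 8.89 and 8.80, on a probe set whose suffix marks possible cross-hybridization. Its other probe sets, 1434445_at and 1457004_at, differed by 0.08 and 0.42 and were not called. Gpc1, a heparan sulfate glypican that binds Slits, rose by 0.60 ± 0.09 (adjusted p = 0.0201), from 9.51, 9.48 and 9.70 to 10.12 and 10.21. Usp33, a deubiquitinase that binds Robo1, rose by 0.34 ± 0.07 (adjusted p = 0.0380), from 8.49, 8.58 and 8.53 to 8.80 and 8.95. Grip1, a scaffold that binds ephrin-B tails, rose by 0.94 ± 0.19 (adjusted p = 0.0387). Calls on the remaining 111 probe sets of transducers were 10 higher and 23 lower, beside 8.66% and 15.0% over all genes. Without wild type replicate 1, limma called 0 of the 62 transducers higher (6 at an unadjusted p under 0.05), and without double mutant replicate 2 it called 2. The call of Usp33 was lost in each leave-out fit (differences from 0.27 to 0.41), and those of Arhgap39, Gpc1 and Grip1 held only without wild type replicate 3 (0.70, 0.67 and 1.09).

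**Figure D5:**
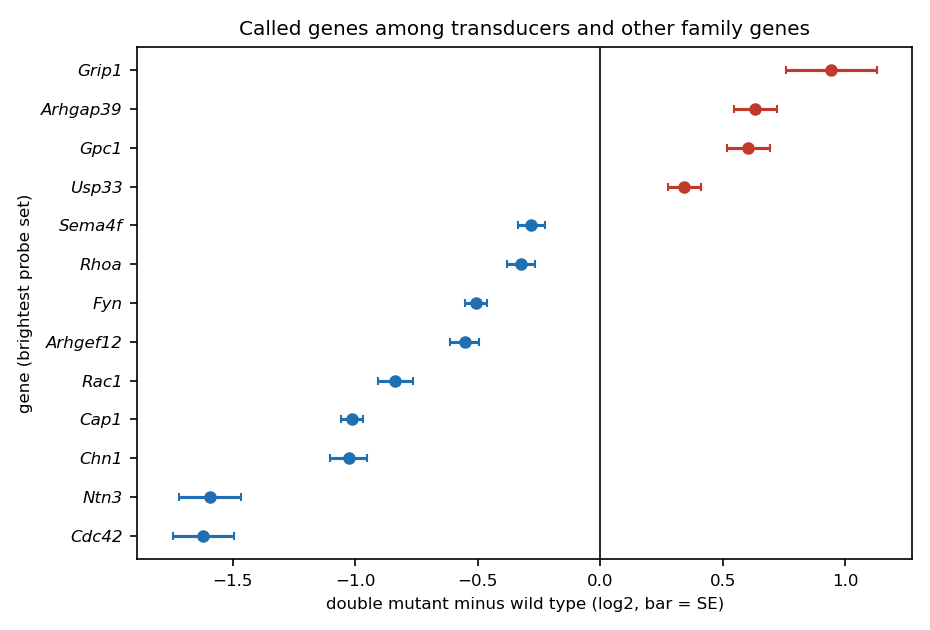
Double mutant minus wild type difference in log2 intensity, with its SE, for the 13 called genes among 62 transducers and 32 other family genes, on the brightest probe set (blue lower, red higher). Cdc42 and Ntn3 lie furthest to the left, at −1.62 and −1.59, and Grip1 furthest to the right, at 0.94.

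Markers of the other cell types that carry these genes are given as levels. Among Schwann cell precursor and neural crest markers 2 of 9 were called lower and 0 higher, with a log2 summed level of 10.43 and 10.02 in double mutants and 10.32 to 10.57 in wild type. Among myogenic progenitor markers 1 of 9 was called lower and 0 higher, with 11.55 and 11.18 against 11.65 to 11.83. Surface ectoderm markers gave 4 of 11 higher and 0 lower, with 12.59 and 12.57 against 12.03 to 12.19, so their summed signal was higher in both double mutant arrays. Within that list Krt5 and Cldn6 went the other way, by −0.38 (without overlap) and −0.28, and were not called. Erythroid and leukocyte markers gave 2 of 10 lower and 0 higher, with 15.46 and 15.62 against 15.64 to 15.74. Over all genes, 6.56% of brightest probe sets were called higher and 8.14% lower. Unadjusted p values under 0.05, in either direction, numbered 3, 4, 6 and 4 in these marker lists with limma. Their part in the differences of the guidance genes was not tested.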

How the data were processed

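Forelimb bud RNA was measured on 5 single-channel Affymetrix arrays after biotin labelling with a kit that amplifies RNA in 2 cycles, per the labels' protocols. The authors deposited linear intensities, 1 per probe set on each array. RMA and limma are named by the submitters' processing notes, without settings or versions. Of 45101 probe sets, 64 controls were left out. The log2 of the deposited intensity was taken, with no further normalization and no filter, and 45037 probe sets were tested in R 4.3.3 by limma 3.58.1 (1 mean per genotype, 3 residual and 1.29 prior degrees of freedom, two-sided, Benjamini-Hochberg over all). The fit was tested on simulated data. Gene names came from the platform annotation, using probe sets with 1 symbol. Promoters came from RefSeq, GRCm38.p6.

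Array values were given for members with a 1.5-fold difference without overlap and for the brightest member of each family. Further members, including those with disagreeing probe sets, and Grip1, Arhgef12, Rhoa, Krt5 and Cldn6 were named after their values were seen. From the other lists the 3 called genes with the smallest p in each direction were named. Members, lists and motifs were chosen with earlier results of these data known. P-values measure the spread between these arrays, which may be partly technical, and 5 arrays limit precision. Alternatives were equal array medians, quantile normalization, a filter on dim probe sets, trend and robust moderation, a replicate block, each array left out, and other choices of probe set per gene.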

Additional observations from a re-analysis of the deposited data

How the results depend on the processing

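With limma, equal array medians, which shifted the median of all probe sets from −0.01 to −0.10, gave 6 members called lower, 4 other family genes lower and 1 higher, and a member median of −0.22. Called member probe sets kept their sign under each scaling, and 6 of 44 brightest ones (Slit1, Epha4, Efna2, Plxna2, Nrp2 and Unc5b), none of them called, changed sign, by sizes up to 0.13. The mean of a gene's probe sets gave 3 members higher and 17 lower, 1 and 5 other family genes, 18 transducers lower, and a member median of −0.25. The second brightest probe set gave 13 of 34 members lower with a median of −0.41, 4 other family genes lower, and 15 transducers lower with 0 higher (4 at an unadjusted p under 0.05). Leaving out dim probe sets removed Robo2 and gave 0 members higher (1 at an unadjusted p under 0.05) and 1 other family gene higher. Quantile normalization gave 1 other family gene higher, and trend and robust moderation 1 higher and 1 lower. The replicate block gave 2351 probe sets called, 0 members lower (5 at an unadjusted p under 0.05), 1 other family gene lower, and 0 transducers higher (6 at an unadjusted p under 0.05) with 3 lower. Wild type replicate 3 was alone in its block. The block differences therefore equal those without that array (−1.09 for Ephb1 in both), and an effect of pairing cannot be read from this fit. The numbers are shared in the titles only, and deviations of same-numbered arrays correlated at 0.09 and 0.12. The deviations of the 2 double mutant arrays mirror each other. Double mutant 2 with wild type 1 therefore gave −0.09, and double mutant 1 with wild type 2 gave −0.12. Pairing cannot be read from these values. Ranking probe sets by wild type mean, chosen after seeing the data, gave 4 members lower. With each array left out, limma called 0 to 5108 probe sets, 0 to 1 members higher and 0 to 2 lower, 0 other family genes higher and 0 to 1 lower, 0 to 3 transducers higher and 0 to 6 lower, and the member median ran from −0.16 to −0.047 (without double mutant replicate 2). Each of these counts of 0 genes had 1 to 14 genes at an unadjusted p under 0.05 in that direction. The causes of these shifts were not tested.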
